A study of Mus musculus with 7 samples.

Results

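The 9 CHD genes, Chd1 to Chd9, were followed in hippocampal neurospheres from Med23 CKO mice and littermate controls. They were taken as a family by gene symbol, as 9 of the 24346 genes in the table, with earlier results of these data known. The paper names Chd5 among the genes lowered in Med23-deficient cells in this same sequencing, so its direction was known beforehand. All 9 passed the filter on low values (a mean of at least 0.5 FPKM over the libraries), which kept 14151 genes. FPKM is the number of sequenced fragments per kilobase of transcript, scaled to the mapped fragments of its library. Levels can be set side by side between genes, but between libraries only roughly, since this scaling does not remove differences in composition. Summed FPKM ran from 447009 in a CKO library (KO_218) to 547029 in a control library (WT_220).

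CHD proteins are ATP-driven chromatin remodelers. Each carries a pair of chromodomains, which in several members read histone marks, in front of an Snf2-type motor that slides, spaces, exchanges or evicts nucleosomes. Chd1 and Chd2 form the first subfamily, Chd3, Chd4 and Chd5 the second, whose members are motor subunits of the nucleosome remodeling and deacetylase complex NuRD, and Chd6, Chd7, Chd8 and Chd9 the last. In the nervous system Chd4 is the common NuRD motor of progenitors, Chd5 is known from neurons, and Chd7 and Chd8 are known from human developmental disorders.

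RNA was sequenced from primary neurospheres, floating cultures grown from the hippocampal neural stem cells of single C57/BL6 mice, in 4 control libraries (WT_116, WT_213, WT_215 and WT_220) and 3 Med23 CKO libraries (KO_117, KO_214 and KO_218). Values of single mice are given in this order throughout, by ascending mouse number within each group. The paper gives fewer control samples than there are control libraries here and does not name them, so no control was left out. Med23 encodes a subunit of Mediator, the complex that links transcription factors to RNA polymerase II, and the design asks what its loss changes in these cells. The CKO mice were Nestin-CreER:Med23 flox/flox. The controls, labelled wild type, were littermates that the study's methods give as Med23 flox/+ or Med23 flox/flox. Mice of both groups received tamoxifen (200 mg/kg by oral gavage on 5 days). The labels give an age of 2 months and a recovery of 3 to 4 weeks, whereas the methods give an earlier treatment for the mice used in culture. Nestin-CreER acts in cells that express the Nestin driver, which include endothelial cells as well as neural stem cells, and a neurosphere culture can hold cells in which the allele was not recombined. Each library came from a different mouse, so the p-values reflect the spread between mice together with that of culture and library.

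Med23 itself stood at 10.3, 12.9, 11.4 and 10.1 FPKM in the control mice, with 9.97, 9.27 and 8.12 FPKM in the CKO mice. All 3 CKO values lay below all 4 control values, but narrowly, and the difference of -0.26 ± 0.18 (SE) on the log2(FPKM + 1) scale did not pass the test (exact permutation p = 0.0571). FPKM over the whole gene also count fragments from outside a floxed segment, so this value checks the direction of the labels but not the extent of deletion. Libraries had between 16841 and 18113 genes above 0, and correlated with each other at r = 0.788 to 0.979 over log2(FPKM + 1). Neural stem and progenitor markers such as Sox2, Nes and Fabp7 were present in every library, with a summed level of 1825 to 3844 FPKM in control and 1759 to 3829 FPKM in CKO libraries. Oligodendrocyte lineage markers summed to 2590 to 4641 and 2235 to 2783 FPKM, astrocyte markers to 202 to 365 and 181 to 603 FPKM, endothelial markers to 7.68 to 61.1 and 6.28 to 105 FPKM, and mural and fibroblast markers to 8.09 to 79.7 and 5.84 to 297 FPKM. KO_214 stood apart, with 12.2% of its summed FPKM in its 10 highest genes and the highest level of the microglia and macrophage markers, 1111 FPKM against 38.9 to 248 FPKM in control libraries. None of the markers was at 0 in any library.

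Coordinates are those of GRCm38 with the GENCODE M21 annotation. The first subfamily lies at chr17:15704967-15772610 (Chd1, plus strand) and chr7:73426638-73541830 (Chd2, minus strand). The NuRD motors lie at chr11:69343273-69369406 (Chd3, minus strand), chr6:125095981-125130591 (Chd4, plus strand) and chr4:152338651-152390194 (Chd5, plus strand). The last subfamily lies at chr2:160946978-161109075 (Chd6, minus strand), chr4:8690406-8867659 (Chd7, plus strand), chr14:52198151-52257780 (Chd8, minus strand) and chr8:90828352-91054516 (Chd9, plus strand).

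How far fragments could be shared between such related genes was read from their annotated transcripts. Within a subfamily the longest identical stretch of coding sequence ran from 20 to 35 bases over 10 pairs of genes (median 23 bases), and between subfamilies from 13 to 20 bases over 26 pairs (median 15.5). No window of 50 bases from the transcript with the longest coding sequence of any of the 9 genes was found in another of them. The longest stretches were those among the NuRD motors, shown here because these 3 genes include the highest and the lowest of the 9. Each line gives 15 bases on either side in lower case and the identical bases in capitals, written 5′ to 3′ on the coding strand.
Chd3 (shared with Chd4): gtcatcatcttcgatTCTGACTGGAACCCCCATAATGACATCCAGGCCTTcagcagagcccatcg
Chd4 (shared with Chd3): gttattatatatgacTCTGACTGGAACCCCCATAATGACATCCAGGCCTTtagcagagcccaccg
Chd3 (shared with Chd5): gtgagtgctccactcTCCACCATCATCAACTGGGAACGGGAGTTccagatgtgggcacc
Chd5 (shared with Chd3): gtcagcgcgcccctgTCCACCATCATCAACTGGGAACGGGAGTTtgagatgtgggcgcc
Chd4 (shared with Chd5): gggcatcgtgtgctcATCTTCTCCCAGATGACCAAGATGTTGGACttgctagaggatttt
Chd5 (shared with Chd4): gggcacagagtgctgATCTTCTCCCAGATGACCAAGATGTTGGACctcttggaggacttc
The 35 bases of Chd3 and Chd4 cross an exon junction in both genes, from exon 22 to 23 of Chd3 (chr11:69353891-69354091) and from exon 23 to 24 of Chd4 (chr6:125113560-125113904). The 29 bases of Chd3 and Chd5 lie within exon 15 of each, at chr11:69357498-69357526 and chr4:152367868-152367896. The 30 bases of Chd4 and Chd5 join exons 21 and 22 of Chd4 (chr6:125110131-125110270) and exons 20 and 21 of Chd5 (chr4:152373566-152374349).

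Sharing with other annotated genes was larger for some members. Chd2 shares 2628 exonic bases, 18.4% of its exonic bases, with 1810026B05Rik on the same strand, and Chd8 shares 953 bases (5.77%) with the antisense gene Gm26590. No strand setting is stated for the counting, so fragments of overlapping genes cannot be told apart. The row of 1810026B05Rik held 2.55 to 4.54 FPKM and differed between groups by -0.06 ± 0.23 (SE, log2). In Chd5, 101 exonic bases (1.05%) overlap the antisense Gm13645. For Chd1, Chd3, Chd4 and Chd7, 0 windows of 50 bases were found in another gene. These windows were taken from the transcript with the longest coding sequence only. Over the exons of all its transcripts, Chd4 shares 63 bases (0.786%) with Mir7045 on the same strand, which also has a row of FPKM.

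The 9 genes covered a wide range of levels in these cultures. Chd4 was the highest in every library, with a mean of 77 FPKM over the 7 libraries, which is at the 92.1 percentile of the genes tested. It was followed by Chd8 at 22.1, Chd2 at 15.3, Chd6 at 12.9, Chd7 at 12.5, Chd1 at 11.0, Chd9 at 7.24 and Chd3 at 7.17 FPKM. Chd5 was the lowest in every library, with a mean of 1.45 FPKM at the 11.2 percentile. Ranges over the libraries did not overlap between Chd4 and Chd8, Chd8 and Chd2, Chd1 and Chd9, or Chd3 and Chd5. The order of the other neighbours varied between mice, and Chd7 was above Chd1 in 3 of 7 libraries. Summed over the 9 genes the level was 143 to 195 FPKM in control and 127 to 201 FPKM in CKO libraries, and Chd4 alone made up 36.3% to 56.4% of it.

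**Figure D1:**
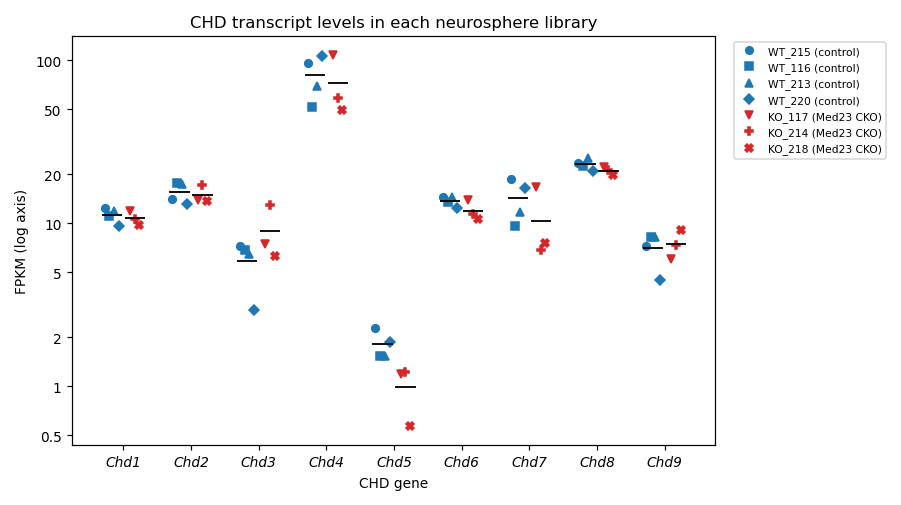
FPKM of Chd1 to Chd9 in each library on a log axis, with control and Med23 CKO mice as separate point colours and the group means as bars. Chd4 lies above all other members in every library, at 49.5 to 108 FPKM, and Chd5 lies lowest, with all 3 CKO points below the 4 control points.

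Between Med23 CKO and control neurospheres, none of the 9 genes passed the test across the table, and 0 of 14151 genes did (0% called; limma, Benjamini-Hochberg adjusted p under 0.05). At an unadjusted p under 0.05, 0 of the 9 genes were called in either direction. Of all genes tested 212 were called, 0.502% in the higher, 0.996% in the lower and 1.5% in either direction. The mean of log2(FPKM + 1), by which genes are counted as higher or lower throughout, was lower in CKO for 7 members and higher for 2, Chd3 and Chd9, where 56.2% of all genes tested had the lower and 43.8% the higher mean in CKO. The median difference of the members was -0.13 on the log2 scale, beside -0.03 over all genes tested. Chd5 was the single member with groups that did not overlap, its CKO values lying below control, as did those of 1.53% of all genes tested. No member lay wholly above control (0.784% of genes did). In such bulk cultures, fewer cells of a type and less RNA per cell cannot be told apart.

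**Figure D2:**
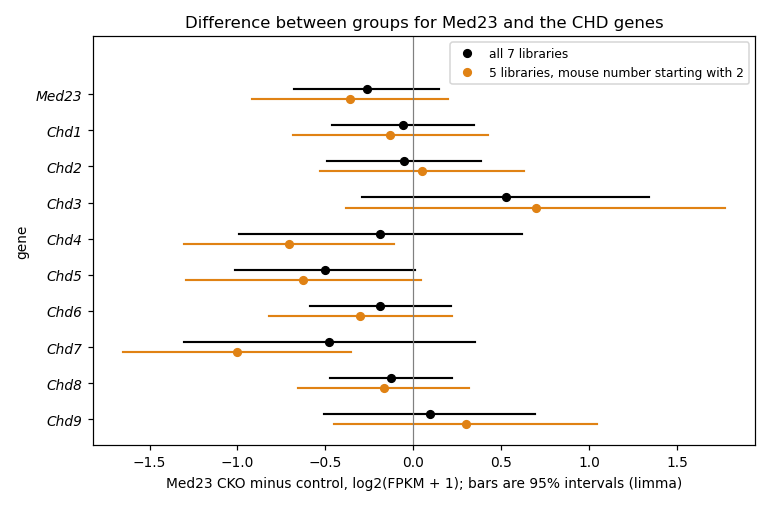
Difference between Med23 CKO and control in mean log2(FPKM + 1) for Med23 and each member, with the 95% confidence interval from limma, over all 7 libraries and over the 5 libraries from mice whose number starts with 2. Every interval over all libraries includes 0, and the estimates run from -0.50 for Chd5 to 0.53 for Chd3.

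Chd5, the NuRD motor known from neurons, showed the clearest separation. Its levels were 1.54, 1.53, 2.27 and 1.86 FPKM in the control mice, with 1.19, 1.21 and 0.568 FPKM in the CKO mice. The highest CKO mouse thus stood below the lowest control mouse, and KO_218 was well under the other CKO mice. The means were 1.80 ± 0.350 (SD, n = 4) and 0.989 ± 0.365 FPKM (SD, n = 3), a ratio of 0.549. On the log2(FPKM + 1) scale, which understates changes of low genes, the difference was -0.50 ± 0.22 (SE), with a 95% interval of -1.02 to 0.01. The exact two-sided permutation test over the 7 libraries gave p = 0.0286, the smallest it can give with 4 and 3 libraries, and limma gave an unadjusted p of 0.0526 and an adjusted p of 1.0. Whether the unadjusted p lay under 0.05 depended on the setting. In limma it was 0.0408 with no filter on low values, where 201 genes of a set larger than the main 14151 were called lower. With libraries weighted by array weights it was 0.00511 (where 1.36% of all genes tested were called higher and 6.27% lower). Without KO_218 it was 0.179 in limma, where the difference was -0.34.

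Chd5 was a small share of the NuRD motors in every library. Of the summed FPKM of Chd3, Chd4 and Chd5 it made up 1.68% to 2.56% in control and 1.01% to 1.66% in CKO libraries. These ranges were apart only by 1.68% in WT_220 against 1.66% in KO_214. The share is drawn from the same Chd5 values, so this is not a separate result. Chd4 exceeded Chd5 by 33.6- to 56.8-fold in control and by 48.5- to 91.0-fold in CKO libraries, and these ranges overlapped. Markers of neurons and neuroblasts, the cells in which Chd5 is best known, summed to 171 to 208 FPKM in control and 102 to 241 FPKM in CKO libraries, and their part in the Chd5 difference was not tested. Of these 12 markers, 3 had the higher and 9 the lower mean in CKO. Gad1, an enzyme of GABA synthesis, was the only marker with an unadjusted p under 0.05 in limma (unadjusted p = 0.00147, adjusted p = 1.0). It stood at 8.92 to 12.2 FPKM in control and 2.21 to 5.24 FPKM in CKO libraries, with a difference of -1.32 on the log2(FPKM + 1) scale.

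The sequence upstream of Chd5 is shown with that of Chd4 because these NuRD motors lie at the opposite ends of the range of levels. RefSeq lists 2 starts for each gene, and the 250 bases before the more upstream start are printed, on GRCm38.p6 at chr4:152338401-152338650 and chr6:125095731-125095980, on the plus strand, with GGGCGG and its reverse complement in capitals.
Chd5: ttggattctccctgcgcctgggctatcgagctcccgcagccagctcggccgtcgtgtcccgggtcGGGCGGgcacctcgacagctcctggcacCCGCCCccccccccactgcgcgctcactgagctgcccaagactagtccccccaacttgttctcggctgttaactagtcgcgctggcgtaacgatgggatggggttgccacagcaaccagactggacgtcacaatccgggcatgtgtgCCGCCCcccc
Chd4: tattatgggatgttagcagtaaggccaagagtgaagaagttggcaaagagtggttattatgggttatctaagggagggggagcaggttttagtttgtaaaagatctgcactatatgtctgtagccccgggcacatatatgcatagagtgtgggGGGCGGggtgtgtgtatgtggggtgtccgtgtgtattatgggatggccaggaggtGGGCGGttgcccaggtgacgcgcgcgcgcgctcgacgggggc
The printed Chd5 window was 67.2% G and C with 21 CpG dinucleotides, and the printed Chd4 window 54% with 12, where the median of 32851 mouse windows of this length was 52.4% with 6 CpG. GGGCGG, the core of the GC box, occurred 3 times upstream of Chd5 (at -185, -157 and -10 from the start) and 2 times upstream of Chd4 (at -97 and -42), and was found on either strand in 32.7% of all windows. Neither printed window held CCAAT (33.8% of all windows), TATAAA (12.4%), CACGTG (6.02%), CCGGAAGT (2.88%) or TGACGTCA (1.55%) on either strand. The contrast between the genes depends on the start shown, since the window of the other Chd4 start (chr6:125095913-125096162) was 67.6% G and C with 23 CpG, 3 GGGCGG (at -224, -154 and -61) and 1 CCAAT (at -178). The window of the other Chd5 start (chr4:152338404-152338653) was 68% G and C with 22 CpG and 3 GGGCGG. RefSeq promoters were matched for 5 of the 9 genes (Chd4, Chd5, Chd6, Chd8 and Chd9).

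Chd4, the main NuRD motor, varied widely between mice of the same group. It was at 51.7, 69.3, 95.6 and 106 FPKM in the control mice, with 108, 58.8 and 49.5 FPKM in the CKO mice. The highest and the lowest of the 7 values were both from CKO mice. The means of 80.6 ± 24.7 (SD, n = 4) and 72.1 ± 31.4 FPKM (SD, n = 3) differed by -0.19 ± 0.35 (SE, log2), with a 95% interval of -0.99 to 0.62 (exact permutation p = 0.686). Its estimate depended on single mice, at -0.52 without KO_117 and 0.038 without KO_218. The order of the libraries followed that of proliferation markers in part: their summed level was 342, 485, 854 and 865 FPKM in the control mice, with 1121, 224 and 589 FPKM in the CKO libraries in the same order, and their part in the Chd4 values was not tested. The mean of log2(FPKM + 1) was lower in CKO for all 8 of these markers, for Pcna by only -0.00029, and 0 of them had an unadjusted p under 0.05 in limma. The mean FPKM without log was higher in CKO for Mki67 (40.9 against 38.6 FPKM in control), Top2a, Ccnb1 and Pcna, and lower for the others. Each of these markers was highest in KO_117 and lowest in KO_214. Genes most like Chd4 over the 7 libraries were Ebf4, Zbed3, Carm1, Cpsf1 and Leng8, with Pearson's r from 0.994 to 0.998 on the log2(FPKM + 1) scale, a description over 7 libraries in which differences between libraries are shared by many genes.

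Chd3, the remaining NuRD motor, had the largest spread of any member, with a coefficient of variation of 41.6% over the libraries. It was at 6.88, 6.43, 7.24 and 2.94 FPKM in the control mice, with 7.46, 13.0 and 6.27 FPKM in the CKO mice. WT_220 lay far below the other controls and KO_214 far above all other libraries. The remaining 5 libraries, of both groups, lay between 6.27 and 7.46 FPKM. The means of 5.87 ± 1.98 (SD, n = 4) and 8.91 ± 3.59 FPKM (SD, n = 3) differed by 0.53 ± 0.35 (SE, log2; exact permutation p = 0.314), and the estimate was 0.25 without KO_214 and 0.28 without WT_220. KO_214 is the library with the highest microglia and macrophage markers. They summed to 1111 FPKM there, 41.5 FPKM in KO_117 and 180 FPKM in KO_218, beside 38.9 to 248 FPKM in control libraries. All 11 of these markers that were tested had the higher mean in CKO, and 0 an unadjusted p under 0.05 in limma. Cx3cr1 did not pass the filter, with means of 0.382 FPKM in control and 0.330 FPKM in CKO libraries. KO_214 also had the highest summed astrocyte (603 FPKM), endothelial (105 FPKM) and mural and fibroblast markers (297 FPKM). It had the lowest summed proliferation (224 FPKM), neuron and neuroblast (102 FPKM) and neural stem and progenitor markers (1759 FPKM). The part of any of these markers in the Chd3 value was not tested. As a share of the 3 NuRD motors, Chd3 ran from 2.66% to 17.8% and Chd4 from 80.5% to 95.7% over the libraries.

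The 12 other subunits of NuRD were all measured. Among them are the histone deacetylases Hdac1 and Hdac2, the histone-binding Rbbp4 and Rbbp7, the Mta scaffolds, and Mbd2 and Mbd3 of the methyl-CpG-binding domain family. None had an unadjusted p under 0.05 in limma or groups that did not overlap. The mean was higher in CKO for 4 and lower for 8, with a median difference of -0.11 (log2). Their levels ran from a mean of 14.1 FPKM for Mta3, at 0.05 ± 0.16 (SE, log2), to 203 FPKM for Cdk2ap1, at -0.28 ± 0.61 (SE, log2). Mbd3 varied with the mouse as Chd4 did, at 61.8, 82.7, 138 and 210 FPKM in the control mice, with 185, 68.4 and 50.6 FPKM in the CKO mice. Mbd2, which takes the place of Mbd3 in a separate form of NuRD, was at 20.7 to 27.8 and 16.8 to 35.03 FPKM. Mta3 spread less than Mbd3, at 12.3 to 16.0 FPKM over all libraries.

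In the first subfamily, the groups overlapped for Chd1 and Chd2. Chd1, which binds methylated lysine 4 of histone H3 and works at transcribed genes, was at 11.1, 11.8, 12.4 and 9.64 FPKM in the control mice, with 11.9, 10.6 and 9.77 FPKM in the CKO mice. The difference was -0.06 ± 0.17 (SE, log2), with a 95% interval of -0.46 to 0.35 (exact permutation p = 0.600). Chd2, a close relative of Chd1 known from epilepsy, was at 17.6, 17.5, 13.98 and 13.2 FPKM in the control mice, with 13.9, 17.3 and 13.6 FPKM in the CKO libraries. Both groups held mice at both ends of the range, and the difference was -0.05 ± 0.19 (SE, log2; 95% interval -0.49 to 0.38; exact permutation p = 0.771).

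In the last subfamily, Chd7, mutated in CHARGE syndrome and a partner of Sox2 in neural stem cells, varied most. It was at 9.67, 11.8, 18.8 and 16.5 FPKM in the control mice, with 16.7, 6.82 and 7.58 FPKM in the CKO mice. KO_214 and KO_218 lay below every control, whereas KO_117 stood among the highest controls. The means of 14.2 ± 4.19 (SD, n = 4) and 10.4 ± 5.47 FPKM (SD, n = 3) differed by -0.48 ± 0.35 (SE, log2), with a 95% interval of -1.31 to 0.35 (exact permutation p = 0.343). Without KO_117 the difference was -0.85, with an unadjusted p of 0.0244 and an adjusted p of 0.596 in limma. In that fit 410 of the 14151 genes tested were called lower. Chd7 and Chd4 correlated over the libraries (r = 0.91, n = 7), and both were highest in WT_215, WT_220 and KO_117, the libraries with the highest Sox2 (155, 191 and 194 FPKM, beside 69.4 to 109 FPKM in the others) and the highest summed proliferation markers. The part of these markers in the Chd7 values was not tested. The genes most like Chd7 were Tmem147, Pde4d, Pcdhgc4, Pygo1 and Kat6a (r = 0.988 to 0.992, n = 7).

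Chd8, mutated in autism and a regulator of beta-catenin targets, was the steadiest member, with a coefficient of variation of 7.98%. It was at 22.6, 25.0, 23.3 and 20.9 FPKM in the control mice, with 22.0, 21.1 and 19.6 FPKM in the CKO mice. The groups overlapped, and the difference was -0.13 ± 0.15 (SE, log2), with a 95% interval of -0.48 to 0.22 (exact permutation p = 0.143). Chd6 was at 13.4, 14.5, 14.5 and 12.3 FPKM in the control mice, with 13.9, 11.3 and 10.6 FPKM in the CKO libraries. KO_214 and KO_218 lay below all controls and KO_117 among them, and the difference was -0.19 ± 0.17 (SE, log2; exact permutation p = 0.143). Chd9 went with the higher mean in CKO, at 8.27, 8.24, 7.22 and 4.46 FPKM in the control mice, with 6.07, 7.35 and 9.05 FPKM in the CKO mice. WT_220 was the lowest control, as for Chd1, Chd2, Chd3, Chd6 and Chd8. The Chd9 difference was 0.09 ± 0.26 (SE, log2; exact permutation p = 0.771). Without WT_220 the Chd9 estimate was -0.082.

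**Figure D3:**
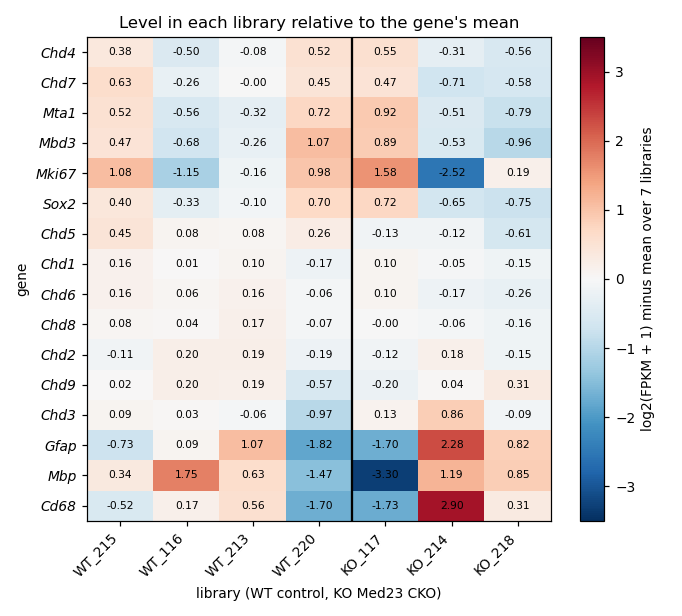
Deviation of log2(FPKM + 1) from each gene's mean over the 7 libraries, for the 9 members, Mta1 and Mbd3 of NuRD, and the markers Mki67, Sox2, Gfap, Mbp and Cd68 (rows) in each mouse (columns). Chd4 and Chd7 are highest in WT_215, WT_220 and KO_117, and Chd5 is lower in the 3 CKO mice than in the 4 control mice.

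Some members varied together between mice. Besides Chd4 and Chd7, Chd6 followed Chd8 (r = 0.90) and Chd1 (r = 0.86), whereas Chd9 ran opposite to Chd4 (r = -0.81), each a description over 7 libraries of both groups. For Chd5, the highest correlation with another member was that with Chd6 (r = 0.72). Outside the family it was most like Nr4a1, Evi5l, Plcxd1, Slc16a14 and Vgll4 (r = 0.958 to 0.970). Nr4a1, an immediate early gene, was at 9.60 to 24.4 FPKM in control and 3.28 to 8.34 FPKM in CKO libraries. These genes were picked for likeness to Chd5, whose groups did not overlap, so a like separation follows in part from that choice. Slc16a14 and Vgll4 also had groups without overlap. Those of Plcxd1 and of Evi5l overlapped, with Evi5l at 24.3 to 34.8 FPKM in control and 16.3 to 25.7 FPKM in CKO libraries. Of all genes tested, 1.53% had every CKO value below control.

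The first digit of the mouse number separates 2 mice (WT_116 and KO_117) from the 5 others, and what that digit stands for is not stated. Among the 5 mice whose number starts with 2, Chd7 was lower in CKO by a log2 difference of -1.003 ± 0.27 (SE) and Chd4 by -0.71 ± 0.25 (SE), with unadjusted p of 0.00893 and 0.0271 and an adjusted p of 0.370 for both in limma. These were 2 of 9 members called lower, where 9.71% of all genes tested were called lower in the same fit (3.14% higher). Chd5 had a difference of -0.63 (unadjusted p = 0.0625, limma). The 2 other mice, 1 in each group, allow no test: there Chd4 was at 51.7 FPKM in control WT_116 and 108 FPKM in KO_117, and Chd7 at 9.67 and 16.7 FPKM. With the digit as a covariate over all 7 libraries, the differences of Chd4 and Chd7 were -0.19 and -0.49.

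Genes reported to act downstream of Chd7, alone or with Sox2, in neural stem or progenitor cells were all measured: Sox4, Sox11, Hes5, Jag1, Gli2, Gli3, Mycn and Tulp3. Of these 8 genes, 4 had the higher and 4 the lower mean in CKO (median difference 0.01). Jag1, a ligand of Notch receptors, was at 15.4, 19.8, 16.0 and 10.6 FPKM in the control mice, with 26.5, 36.2 and 28.5 FPKM in the CKO mice. All 3 CKO values were above all control values, with a difference of 0.95 ± 0.24 (SE, log2; limma unadjusted p = 0.00442, adjusted p = 1.0). Tulp3, a regulator of Hedgehog signaling at the cilium, was at 16.6 to 20.5 FPKM in control and 24.1 to 26.6 FPKM in CKO libraries, also without overlap, with a difference of 0.46 ± 0.16 (SE, log2; limma unadjusted p = 0.0195, adjusted p = 1.0). Tulp3 was not called without WT_215, with a difference of 0.42 (limma unadjusted p = 0.0608), nor among the mice whose number starts with 2, with 0.47 (limma unadjusted p = 0.0634). Jag1 and Tulp3 were the 2 of 8 genes called higher, where 0.502% of all genes tested were, on a list chosen with earlier results of these data known. At the ends of the list's range of levels, Sox4 averaged 82.4 FPKM with a difference of -0.45 ± 0.42 (SE, log2), and Gli2 averaged 0.549 FPKM with 0.46 ± 0.23 (SE, log2). Jag1 and Tulp3 lay above the control range in KO_117 as well, where Chd7 was at 16.7 FPKM. The part of Chd7 in the Jag1 and Tulp3 values was not tested.

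Other remodelers were described in the same way. Among 20 further Snf2-type ATPases, such as Smarca4 of the BAF complex, Smarca5 of the ISWI complexes and Ino80, 3 had the higher and 17 the lower mean in CKO, with a median difference of -0.12 (log2) and 0 called at an unadjusted p under 0.05 in limma. Smarca4 was the highest at a mean of 55.8 FPKM, with a difference of -0.24 ± 0.40 (SE, log2), and Zranb3 the lowest at 2.77 FPKM, with 0.31 ± 0.19 (SE, log2). Rad54l2 had the most negative difference of the list, at -0.44 ± 0.21 (SE, log2; limma unadjusted p = 0.0708). It was called lower without KO_117, at -0.59 (limma unadjusted p = 0.0315), among the mice whose number starts with 2, at -0.66 (limma unadjusted p = 0.0303), and with array weights, at -0.63 (limma unadjusted p = 0.00716). In these fits 410, 1374 (9.71%) and 887 (6.27%) of the 14151 genes tested were called lower. Of 30 accessory subunits of BAF and ISWI complexes, 4 had the higher and 26 the lower mean (median -0.09), and again 0 were called and 0 had groups without overlap. Their levels ran from 0.985 FPKM for Cecr2, at 0.19 ± 0.22 (SE, log2), to 56.4 FPKM for Smarcb1, at -0.20 ± 0.39 (SE, log2). Smarca4 took its 3 highest values, 68.2, 85.3 and 84.3 FPKM, in WT_215, WT_220 and KO_117, the libraries in which Chd4 and Chd7 were also highest.

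**Figure D4:**
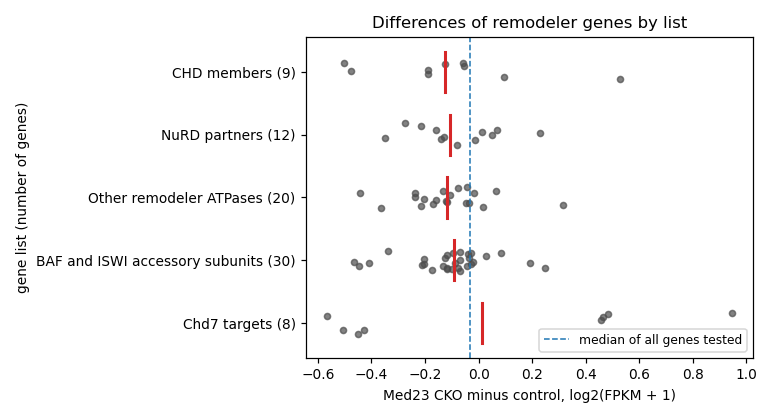
Differences between Med23 CKO and control in mean log2(FPKM + 1) for each gene of the CHD members, the NuRD partners, the other remodeler ATPases, the BAF and ISWI accessory subunits and the Chd7 targets, 1 point per gene, with the median of each list as a red bar and that of all genes tested as a dashed line. Every list median lies between -0.13 and 0.01, and Jag1 stands out at 0.95.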

How the data were processed

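The authors aligned reads to mm10 with TopHat and computed FPKM per gene with Cuffdiff, per the labels and the study's methods. The deposited FPKM of 24346 genes in 7 libraries (0 columns of samples without a group) were used. The deposited group means, fold changes, p-values and q-values were not. Low FPKM values showed no steps of whole fragments, so the depth of each library is unknown. The number of libraries limits the precision, and the part of fragment counting in the spread of low genes was not tested. FPKM were analysed as log2(FPKM + 1) for the 14151 genes with a mean of at least 0.5 FPKM. The test was limma 3.58.1 (lmFit, eBayes with trend, two-sided, Benjamini-Hochberg adjustment over the genes tested) in R 4.3.3. It was tried on simulated data with independent noise for each gene and planted changes larger than the difference of any member. That trial does not show how limma behaves for low genes, small differences or variation shared between genes. Single genes were also tested by exact two-sided permutation over the 35 ways of placing 7 libraries into groups of 4 and 3. Alternatives changed the pseudocount, filter, scaling, model and libraries. Genes named are Med23, the 9 members, and genes of the lists with an unadjusted p under 0.05, without overlap, at the ends of the range of levels or on which a result turns, and the 5 genes most like Chd4, Chd5 and Chd7. Members and lists were chosen with earlier results of these data known. Hes5 stands in 2 lists. Transcripts were those of GENCODE M21 (GRCm38) and promoters those of RefSeq (GRCm38.p6). Figures were drawn with matplotlib 3.10.9.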

Additional observations from a re-analysis of the deposited data

Results flagged for a closer look

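Chd3 in control WT_220 was 2.94 FPKM, beside 6.43 to 7.24 FPKM in the other control libraries. Its gap to the nearest control was 0.860 of the range of the 4 values, above the critical value of Dixon for 4 samples. Med23 and the 9 members were screened in this way, and chance alone passes about 1 in 20 groups. WT_220 was also the lowest control for Med23, Chd1, Chd2, Chd6, Chd8 and Chd9, though none of these was flagged. Without WT_220 the Chd3 difference was 0.28 (log2) in place of 0.53, with an unadjusted p of 0.373 in limma.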

How the results depend on the processing

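No paired analysis was possible because the labels do not say which control and CKO mice came from the same litter. With 4 and 3 libraries, differences as small as those of most members could not be told from the spread between mice. Of 9 members, Chd3, Chd6, Chd7 and Chd8 kept the sign of their difference under every alternative run, as did Chd5. For Chd5 the difference was -0.50 with no filter (unadjusted p = 0.0408) and without the trend (unadjusted p = 0.0407), -0.48 with centring on library medians (unadjusted p = 0.0417), -0.73 with array weights (unadjusted p = 0.00511), -0.87 as the log2 ratio of group means, and -0.59 to -0.34 with 1 library left out, by limma. Members called lower at an unadjusted p under 0.05 in limma numbered 1 with no filter, centring or no trend. With no filter 201 genes were called lower, out of a set larger than the main 14151. With centring and with no trend 119 and 143 of the 14151 genes tested were called lower. Members called lower numbered 3 with array weights (Chd5, Chd6 and Chd7, with 6.27% of all genes called lower there). Among mice whose number starts with 2 they numbered 2 (9.71% of all genes). Members called lower numbered 1 without KO_117 or without KO_214, where 410 and 205 of the 14151 genes tested were called lower. Without any other single library they numbered 0. Chd2 was at 0.049 among mice whose number starts with 2. With 1 library left out the range was -0.13 to 0.0017 for Chd1, -0.16 to 0.0043 for Chd2, -0.52 to 0.038 for Chd4, -0.082 to 0.22 for Chd9 and -0.90 to 0.028 for Mbd3, the sign turning without KO_218 for all 5, without WT_116 or WT_213 for Chd2 and without WT_220 for Chd9. Med23 was at -0.43 with array weights. Over the whole table, genes called higher numbered 140 with no filter, 193 with array weights, 445 among mice whose number starts with 2 and 45 (without WT_215) to 354 (without KO_117) with 1 library left out, and genes called lower 887, 1374 and 70 (without KO_218) to 410 (without KO_117) for the last 3 of these, with 0 to 1 genes (1 without KO_214 and 1 without KO_218) at an adjusted p under 0.05. Among mice whose number starts with 2 the median was -0.44 for NuRD partners and -0.40 for BAF and ISWI subunits, and with a mean of at least 1 FPKM it was -0.43 for the Chd7 targets, since Gli2 was then not tested. The cause of the other changes was not tested.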
